A study of Mus musculus with 2 samples.

Results

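Timd4-negative Kupffer cells are cell barcodes of mouse liver that carry the transcripts of Kupffer cells but hold no count of Timd4. The members were chosen by measured transcript counts. A barcode was taken when the summed counts of Clec4f, Vsig4, Cd5l and C6 reached 30 per 10000 counts, when 3 sums that mark other cells stayed low, and when its raw Timd4 count was 0. The 3 low sums were Gpnmb, Mmp12 and Trem2 (scar-type macrophages, under 5 per 10000), Ptprb, Kdr, Stab2 and Gpr182 (endothelium, under 15), and Dcn, Colec11 and Ecm1 (mesenchymal cells, under 10). Of 20000 barcodes in the files, 13519 had at least 300 genes, at least 5000 counts and at most 25% mitochondrial counts. Among these, 2013 passed the Kupffer gate, 150 of them with 0 Timd4 counts, 68 with 1 and 1795 with 2 or more. The comparison class throughout is the 1795 barcodes with 2 or more counts, called Timd4-positive.

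Kupffer cells are the resident macrophages of the liver sinusoids, where they clear aged red cells, microbes and dying cells from the blood. Timd4 encodes Tim-4, a receptor for phosphatidylserine on dying cells, and in mouse liver it is a mark of the Kupffer cells seeded before birth. Macrophages that arise later from blood monocytes can settle in the same niche and take on Clec4f and other Kupffer genes, while Timd4 comes late or not at all.

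The study profiled liver cells of a male knockout mouse and its control littermate after partial inferior vena cava ligation, an operation that congests the liver. Hepatocytes were removed by slow centrifugation and erythrocytes by a density gradient, and BD Rhapsody whole-transcriptome libraries were made from about 10000 viable cells. There are 2 libraries, each of 1 mouse. By its genotype label, the control library is Ctgffl/fl (floxed Ctgf alleles, no Cre) and the knockout library is Cdh5-CreERT2; Ctgffl/fl. Both mice therefore carry the floxed alleles, and both underwent the ligation. The Cre is tamoxifen-inducible and driven by the endothelial Cdh5 promoter. The labels used here give neither the induction schedule nor the time after ligation, nor the age of the mice.

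The sample titles name the genotypes the other way round from the genotype labels and library names. Ccn2, the gene of CTGF, was at 902 counts per 1000000 (CPM; exact 95% Poisson interval 887 to 917) in 1511 endothelial-gated barcodes of the library labelled control. It was at 4.51 CPM (3.76 to 5.36) in 2785 such barcodes of the library labelled knockout. Groups follow the genotype labels here. With 1 mouse per genotype, a difference between the libraries cannot be told apart from a difference between mice, and no test of genotype was possible.

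The control library held 117 Timd4-negative barcodes among 724 gated, or 16.2% (exact binomial 95% interval 13.6 to 19.0). The knockout library held 33 among 1289, or 2.56% (1.77 to 3.58). These intervals, and all Poisson intervals below, cover counting error only. Depth moved with the class and with the library. Median counts were 9573 and 10523 per Timd4-negative barcode in the control and knockout libraries, against 13988 and 17860.5 per Timd4-positive barcode. The share was lower at greater depth in both libraries: from 25% at 5000 to 8000 counts to 5.45% above 24000 in the control library, and from 13.7% to 0.442% in the knockout library. With every barcode thinned to 5000 counts the shares were 23.6% and 6.67%, and within 10000 to 20000 counts they were 13.3% and 2.12%, so the control library was higher in each case.

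A count of 0 in a barcode limits Timd4 only loosely: 3 counts correspond to 313 CPM at the median Timd4-negative control barcode and to 285 CPM at the median knockout one. Timd4-positive barcodes averaged 547 CPM (531 to 563) and 816 CPM (804 to 828). Some Timd4-negative barcodes may therefore hold Timd4 transcripts that were not counted, and more so at low depth. In cells that should lack the gene, 4.50% and 4.81% of endothelial-gated barcodes held a Timd4 count, at median depths of 8024 and 8584. Among Kupffer-gated barcodes 83.8% and 97.4% did, at median depths of 12779 and 17570.

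The markers go with the label in part. Clec4f, a lectin restricted to Kupffer cells, stood at 1505 CPM in the Timd4-negative control sum and 2830 CPM in the knockout sum, against 4024 and 4805 CPM in the Timd4-positive sums. Vsig4, a complement receptor, stood at 1939 and 1768 CPM against 2929 and 3086 CPM. Cd5l, a secreted macrophage protein, stood at 2570 and 2352 CPM against 4431 and 3787 CPM. C6, a complement component, stood at 204 and 592 CPM against 1458 and 2328 CPM. These 4 genes were used by the gate, so their values are a description. In endothelial-gated barcodes they reached at most 48.2 CPM (Cd5l, control). Those barcodes were chosen for a low sum of these same 4 genes, so that level was bounded by the choice. Marco, the marker the gate did not use, was 95.7 CPM in the control sum and 144 CPM in the knockout sum, and only 23 of 117 and 5 of 33 Timd4-negative barcodes held a count of it.

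The Timd4-negative barcodes crowd at the lower edge of the gate. Their median Kupffer sum was 59.5 and 73.1 per 10000, against 133 and 142 in Timd4-positive barcodes. Of the 117 control barcodes, 54 lay between 30 and 50, 50 between 50 and 100 and 13 at 100 or more. Of the 33 knockout barcodes the numbers were 10, 15 and 8. Just inside the edge, at 30 to 35, 18 of 20 control and 5 of 5 knockout barcodes had no Timd4 count. Just outside it, at 25 to 30, the numbers were 10 of 15 and 3 of 6. The scar-macrophage limit mattered in the control library alone, where 128 Timd4-negative barcodes failed only that limit, against 1 in the knockout library.

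**Figure D1:**
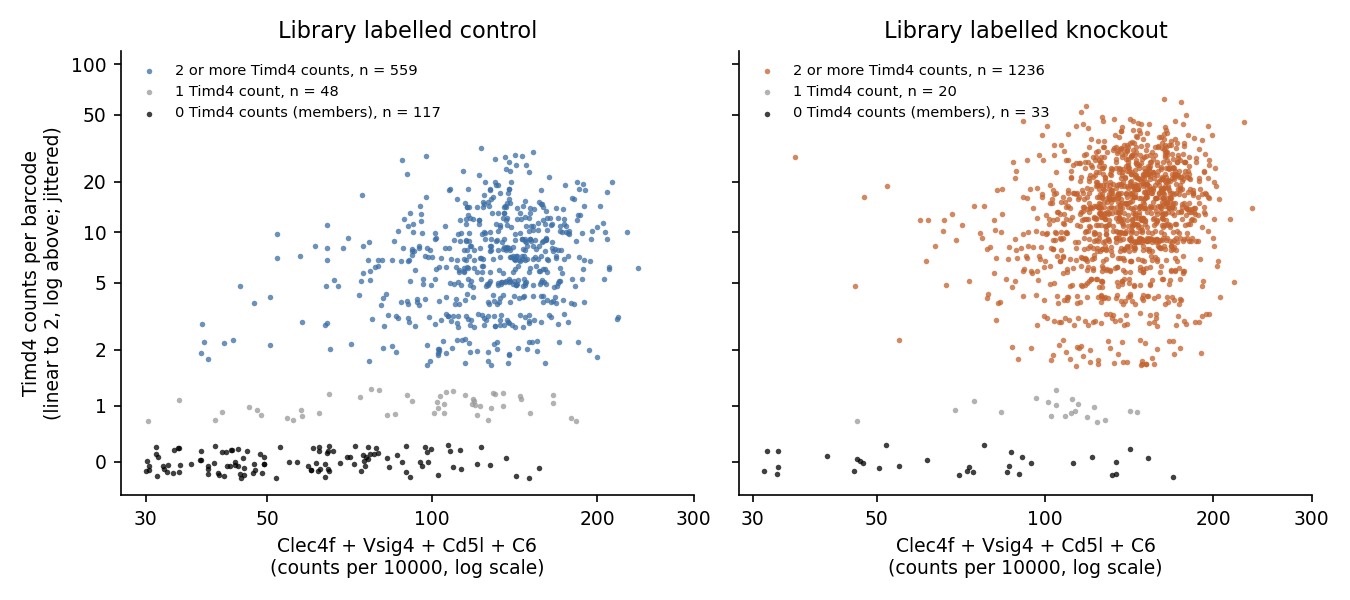
Each point is a gated Kupffer barcode of the library labelled control (left, n = 724) or knockout (right, n = 1289). The x axis is the summed Kupffer gate genes per 10000 counts (log scale) and the y axis is the raw Timd4 count; the barcodes with 0 Timd4 counts (black) spread over the lower Kupffer sums, with medians of 59.5 and 73.1, while barcodes with 2 or more counts centre on 133 and 142.

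To ask what else sets these barcodes apart, counts were summed over each class in each library. The 4 sums held 1275003 (control, Timd4-negative), 8185715 (control, Timd4-positive), 395403 (knockout, Timd4-negative) and 22756998 (knockout, Timd4-positive) counts. They were tested with edgeR's quasi-likelihood test with the library as a block and Benjamini-Hochberg adjustment, and a gene was called at an adjusted p below 0.05. The replicates of this contrast are the 2 libraries, which differ in genotype. The fit leaves 1 residual degree of freedom and takes its spread from all genes together. Of 9597 genes tested outside the gate, 167 (1.74%) were called higher and 301 (3.14%) lower in Timd4-negative barcodes. Without the library block edgeR called 0 genes in either direction, with 579 at an unadjusted p below 0.05. DESeq2 with the block called 68 and 78.

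Genes of Kupffer identity fell in Timd4-negative barcodes. Of 11 measured genes outside the gate, 10 were called lower and none higher, with a median log2 ratio of -0.88, against 0.01 over all genes tested. Genes 1.5-fold higher in both libraries made up 4.32% of all genes tested and none of these 11, and genes 1.5-fold lower in both made up 3.41% and 6 of these 11. The median shrank to -0.53 with the Kupffer gate at 50 and to -0.40 with the gate at 100.

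Cd163, the receptor that takes up haemoglobin bound to haptoglobin, was 264 CPM in Timd4-negative and 1222 CPM in Timd4-positive control barcodes. In the knockout library it was 556 and 1779 CPM. Both libraries were low in the Timd4-negative class, and the fitted log2 ratio was -1.99 (adjusted p = 3.39e-82, edgeR's quasi-likelihood test). Folr2, a folate receptor of resident macrophages, was 235 against 751 CPM and 665 against 1277 CPM, with a log2 ratio of -1.35. Marco, a scavenger receptor for bacteria and particles, was 95.7 against 760 CPM and 144 against 358 CPM, with a log2 ratio of -2.39. Its counts were concentrated: the top barcode held 50.8% and 61.4% of the Timd4-negative Marco counts, and the ratio was -3.48 with that barcode removed. Kcna2, a potassium channel gene of Kupffer cells, was 48.6 against 245 CPM and 159 against 307 CPM, a log2 ratio of -1.71. DESeq2 called neither Marco nor Kcna2, and calls for Cd163, Folr2, Marco and Kcna2 ended with the Kupffer gate at 100.

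Cdh5, the endothelial cadherin gene that Kupffer cells also transcribe and whose promoter drives the Cre, was 205 CPM in Timd4-negative control barcodes against 470 CPM in Timd4-positive ones. It was 271 against 637 CPM in the knockout library, and the fitted log2 ratio was -1.25. The 10 endothelial markers, 4 of which the gate itself limited and none of which was at 0 in any sum, were lower as well when summed, at 446 and 574 CPM against 676 and 958 CPM; their part in the Cdh5 difference was not tested. Clec1b, a lectin of Kupffer cells and the member of the list that was not called, was 336 against 398 CPM and 377 against 418 CPM, with an adjusted p of 0.389 by edgeR.

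Of 13 measured genes for handling haem and iron, 7 fell and none was called higher, with a median log2 ratio of -0.29, beside 3.14% of all genes called lower. The other 6 members were not called, among them Hpx, the haem carrier hemopexin, at 0.34, and 2 of the 13 were 1.5-fold lower in both libraries. Hmox1, haem oxygenase 1, was 597 against 1702 CPM in the control library and 539 against 1119 CPM in the knockout library. Its fitted log2 ratio was -1.34, and it stayed called with the Kupffer gate at 50 and at 100. Fth1, the ferritin heavy chain, was 2195 against 3090 CPM and 2519 against 3536 CPM, a log2 ratio of -0.52. Slc40a1, the iron exporter ferroportin, was 3274 against 4077 CPM and 2934 against 3878 CPM, a log2 ratio of -0.39. Slc48a1, a haem transporter, had a log2 ratio of -0.53 and was lost under many settings, among them a gate of 50. The 5 erythroid markers moved the same way when summed, at 242 and 53.1 CPM in Timd4-negative against 862 and 589 CPM in Timd4-positive sums, with 1 of the 5 at 0 in the Timd4-negative knockout sum; their part in these differences was not tested.

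Complement genes were mostly lower too. Of 10 measured outside the gate, 7 were called lower and 1 higher, with a median log2 ratio of -0.46. Over all genes tested, 3.14% were called lower and 1.74% higher. C4b, a component of the classical pathway, was 158 against 405 CPM and 228 against 649 CPM, a log2 ratio of -1.46. C2, a serine protease of the same pathway, had a log2 ratio of -2.47, and the C1q chain gene C1qa one of -0.36, whose call ended with the gate at 50. C5ar1, the receptor for the anaphylatoxin C5a, was the gene called higher. It was 203 against 87.2 CPM and 185 against 107 CPM, a log2 ratio of 1.0.

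Other large falls lay in single genes of lipid and chemokine biology. Apoc1, an apolipoprotein, was 116 against 787 CPM and 220 against 1025 CPM, a log2 ratio of -2.56. Among Timd4-negative barcodes 45.3% and 42.4% held an Apoc1 count, against 98.4% and 99.5% of Timd4-positive ones. Fcna, a ficolin that binds microbial sugars, was 556 against 1700 CPM and 668 against 2141 CPM, a log2 ratio of -1.68. Cxcl13, a chemokine that attracts B cells, was 45.5 against 192 CPM and 37.9 against 904 CPM. Its fitted log2 ratio of -3.06 was the lowest among called genes of at least 50 CPM, although DESeq2 did not call it. Ank2, Ccdc148, Pcolce2, Xlr, Gfra2 and Slc45a3 completed the 10 lowest, with log2 ratios from -2.58 (Ank2) to -2.11 (Slc45a3). Within the lysosome list, the proteases Ctsd (-0.82) and Ctsl (-0.78) and the glycoprotein gene Cd68 (-0.45) were called lower.

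MHC class II genes rose in Timd4-negative barcodes. These genes encode the machinery that presents peptides to CD4 T cells. Of 7 measured, 6 were called higher and none lower, with a median log2 ratio of 1.38; genes called higher made up 1.74% of all genes. H2-Aa, an alpha chain, was 3161 against 1272 CPM in the control library and 5346 against 1875 CPM in the knockout library. H2-Eb1, a beta chain, was 1795 against 639 CPM and 3594 against 964 CPM, with a log2 ratio of 1.66. Cd74, the invariant chain, was 3045 against 1397 CPM and 5463 against 2419 CPM, with a log2 ratio of 1.12. Ciita, the master regulator of class II transcription, was 58.8 against 23.5 CPM and 162 against 34.9 CPM, with a log2 ratio of 1.74. H2-DMb1, a chain of the peptide loader, was not called (118 against 92.2 CPM and 152 against 102 CPM, adjusted p = 0.166 by edgeR). H2-Aa and H2-Eb1 stayed called with the Kupffer gate at 100, while Cd74, H2-Ab1, H2-DMa and Ciita did not, and H2-DMa turned to -0.14.

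H2-Aa was counted in nearly every barcode, in 97.4% and 93.9% of Timd4-negative and 97.1% and 99.5% of Timd4-positive ones, so its share of barcodes cannot show a difference. Ciita was counted in 29.1% and 54.5% of Timd4-negative and in 21.3% and 33.7% of Timd4-positive barcodes. Summed over the list, class II counts per 10000 had a median of 88.5 (quartiles 36.6 and 145) in Timd4-negative control barcodes, against 29.2 (16.0 and 56.2) in Timd4-positive ones. In the knockout library the medians were 172 (43.5 and 293) and 59.1 (36.8 and 96.1). The ranges overlap widely in both libraries. Markers of other class II-bearing cells were sparse: dendritic cell markers summed to 80.0 and 149 CPM against 63.0 and 69.7 CPM, and B cell markers to 141 and 60.7 CPM against 63.2 and 170 CPM. Of the dendritic cell list, Siglech and Ccr7 were at 0 in the Timd4-negative knockout sum. Cd209a was 48.1 CPM there, all of it from 1 barcode, and 0 with that barcode removed. Cd79b was the B cell marker called higher. The B cell sum had a median of 0 per barcode in each class and library. Its highest barcode reached 136 and 6.38 per 10000 in Timd4-negative and 38.6 and 943 in Timd4-positive barcodes. The part of such transcripts in the class II difference was not tested.

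**Figure D2:**
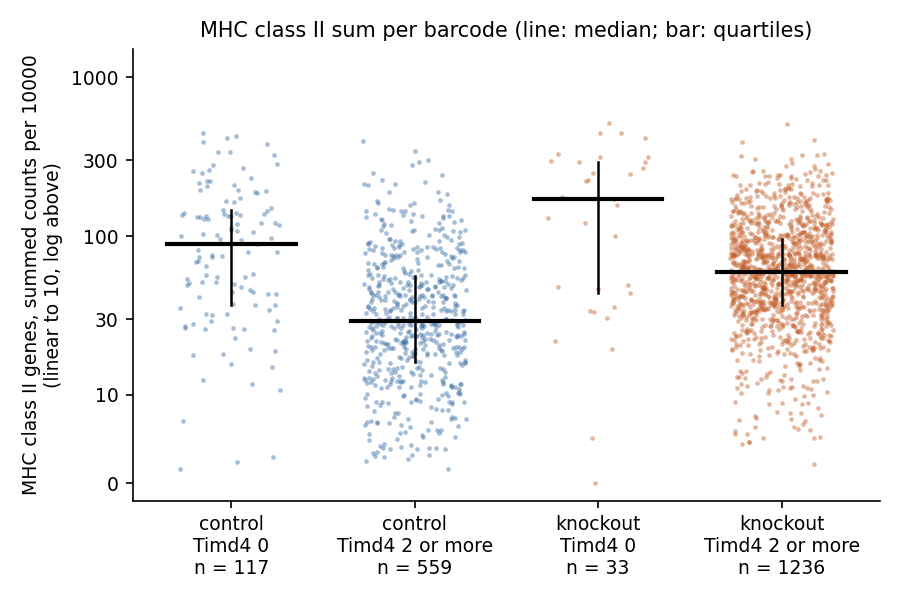
Points are barcodes and the y axis is the sum of the MHC class II genes in counts per 10000, linear to 10 and logarithmic above. Horizontal lines mark medians and vertical bars quartiles: 88.5 and 29.2 for Timd4-negative and Timd4-positive control barcodes, 172 and 59.1 for the knockout library.

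Several genes that blood monocytes carry rose, yet the list did not move as one. Of 17 monocyte genes measured, 8 were called higher and 1 lower, beside 1.74% and 3.14% of all genes tested. The median log2 ratio was 0.99 and depended on the gate, as it fell to 0.040 with the Kupffer gate at 50 and turned to -0.28 at 100. It also turned to -0.16 with tighter endothelial and mesenchymal limits. Cx3cr1, the fractalkine receptor, was 122 against 11.7 CPM in the control library and 88.5 against 4.0 CPM in the knockout library. The fitted log2 ratio was 3.79 (adjusted p = 1.09e-42, edgeR's quasi-likelihood test). Cx3cr1 counts were spread over 55 of 117 and 10 of 33 Timd4-negative barcodes, against 56 of 559 and 56 of 1236 Timd4-positive barcodes. Ccr2, the chemokine receptor of classical monocytes, was 104 against 46.9 CPM and 217 against 19.0 CPM, with a log2 ratio of 2.18 that DESeq2 did not call. Ccr1, a chemokine receptor outside the list, was 91.8 against 7.70 CPM and 63.2 against 2.42 CPM, with a log2 ratio of 4.0. The calls for Cx3cr1, Ccr1 and Ccr2 ended with the gate at 100.

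Ly6c2, the surface marker of classical monocytes, was the monocyte gene called lower. It had 1 count in each Timd4-negative sum, that is 0.784 and 2.53 CPM, against 14.4 and 17.6 CPM in Timd4-positive sums. With so few counts the log2 ratios had wide counting intervals, -9.52 to -1.69 in the control library and -8.10 to -0.31 in the knockout library. Barcodes gated as monocytes held 1116 and 2597 CPM of Ly6c2, and 2792 and 1439 CPM of Ccr2. Those barcodes were chosen for a high sum of Ly6c2, Chil3 and Plac8 and for a low Kupffer sum. Their Ly6c2 level was therefore in part set by the choice. The call for Ly6c2 was lost by DESeq2 and turned to 0.49 in thinned barcodes, so no direction is drawn from it.

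Fn1 (fibronectin), Arg1 (arginase 1) and Emp1 (a membrane protein) had fitted log2 ratios of 4.05, 3.19 and 4.06, and all 3 rested on few barcodes. In the control library Fn1 was counted in 11 of 117 Timd4-negative barcodes, and the top barcode held 49.9% of its counts. Only 4 of 33 knockout barcodes held an Fn1 count, and 1 of them held 98.5% of the counts. Arg1 was counted in 10 and 2 barcodes, with 48.0% and 95.5% of counts in the top one, and Emp1 in 3 and 1. With the Kupffer gate at 50, Fn1 turned to -0.014 and Arg1 to -0.39.

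Other genes that are not monocyte markers also rose, with support that differed from gene to gene. Cd207, the lectin langerin, was 325 against 81.7 CPM and 721 against 64.8 CPM, a log2 ratio of 2.69. It was counted in 51.3% and 51.5% of Timd4-negative barcodes, against 36.0% and 29.5% of Timd4-positive ones. Ifi44, an interferon-induced gene, was 180 against 49.8 CPM and 195 against 26.5 CPM, a log2 ratio of 2.25. It was the only member of the 14 interferon response genes that was called. Mmp13, a collagenase, was 77.6 against 8.92 CPM and 22.8 against 2.24 CPM, a log2 ratio of 3.15, with 9 counts in the knockout sum. Cd207 and Ifi44 stayed called with the Kupffer gate at 50 and at 100, with log2 ratios of 2.17 and 2.44 at 100. Mmp13 stayed called at 50 and passed no filter on counts at 100, and its call ended when only genes at 50 CPM or more were tested. The motor protein gene Myo5a (3.04) and the receptor gene Slamf7 (2.28) completed the 10 highest, and their calls ended with the gate at 50.

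**Figure D3:**
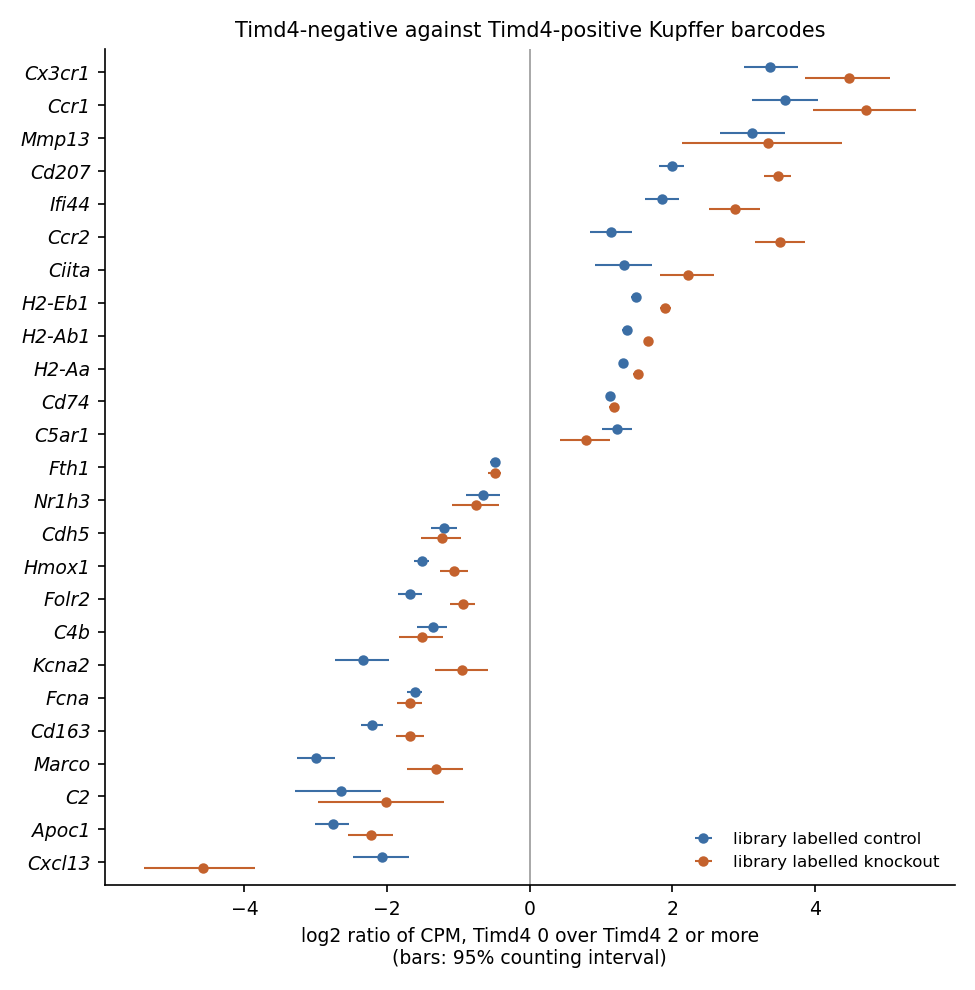
For 25 named genes, points give the log2 ratio of CPM between Timd4-negative and Timd4-positive barcodes in the library labelled control (blue) and knockout (orange), with 95% counting intervals. All 25 genes lie on the same side of 0 in both libraries, from 3.37 and 4.47 for Cx3cr1 to -2.07 and -4.57 for Cxcl13. Some were named by a rule that required the same direction in both libraries, so this agreement was in part set by the choice. Cd36, Clec4n, Smc2 and Hspb1, which had opposite signs in the libraries, are not drawn.

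Chemokine genes went both ways. Ccl3 and Ccl4, which attract monocytes and T cells, had log2 ratios of 1.14 and 1.03, and Ccl9 and the neutrophil chemokine Cxcl2 had 1.81 and 1.47. The Ccl4, Ccl9 and Cxcl2 calls ended with the gate at 50. In the knockout library 1 barcode held 78.8% of the Ccl9 counts and 1 held 54.1% of the Cxcl2 counts. Besides Cxcl13, Ccl24 (-1.19), Cxcl10 (-1.37) and the cytokine Il10 (-0.99) were called lower; DESeq2 called neither Cxcl10 nor Il10. Pf4, a chemokine of platelets that macrophages can also transcribe, was 311 against 83.2 CPM and 116 against 34.9 CPM, a log2 ratio of 1.81. The other platelet markers had few counts: Ppbp was 0.784 against 0.611 CPM in the control library and 15.2 against 4.09 CPM in the knockout library, from 1 and 6 counts in the Timd4-negative sums. Itga2b had 2 and 0 counts and Gp9 had 0 and 0 counts in those sums, and their part in the Pf4 difference was not tested.

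The transcription factors of Kupffer identity showed small differences. Nr1h3, which encodes the oxysterol receptor LXR alpha, was 126 against 198 CPM and 197 against 331 CPM, a log2 ratio of -0.73. Spic, which drives genes of iron recycling, had a log2 ratio of -0.49. Id1 (0.61) and Rbpj, the nuclear partner of Notch (0.78), were called higher, although DESeq2 called neither them nor Spic, and the calls for Id1 and Rbpj ended with the gate at 50. Csf1r, the receptor that macrophages need to survive, was 2235 against 2241 CPM and 2729 against 2707 CPM, with an adjusted p of 0.948 by edgeR. None of the 12 niche signal receptors was called.

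The order of levels over the Timd4 count differed between genes and libraries. Barcodes with 1 Timd4 count (48 control, 20 knockout) held 875 and 1422 CPM of Cd163, between the Timd4-negative values of 264 and 556 CPM and the values of 1232 and 1788 CPM at 5 or more counts. Marco was higher in each further class of the control library, from 95.7 CPM through 278 and 437 to 837 CPM. Marco ran in the knockout library from 144 CPM through 88.0 and 230 to 366 CPM. H2-Aa was lower in each further class of the control library, from 3161 CPM through 1909 and 1746 to 1159 CPM. In the knockout library H2-Aa was 5346 CPM at 0 counts and 1735, 1966 and 1869 CPM in the further classes. Ifi44 was 51.9 CPM at 1 count in the control library and had no count in the knockout library. Cx3cr1 was 47.2 and 34.2 CPM at 1 count, and at most 12.1 CPM at 2 to 4 counts. Low depth puts some barcodes into a lower class than their Timd4 level would give, and its part in these values was not tested.

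**Figure D4:**
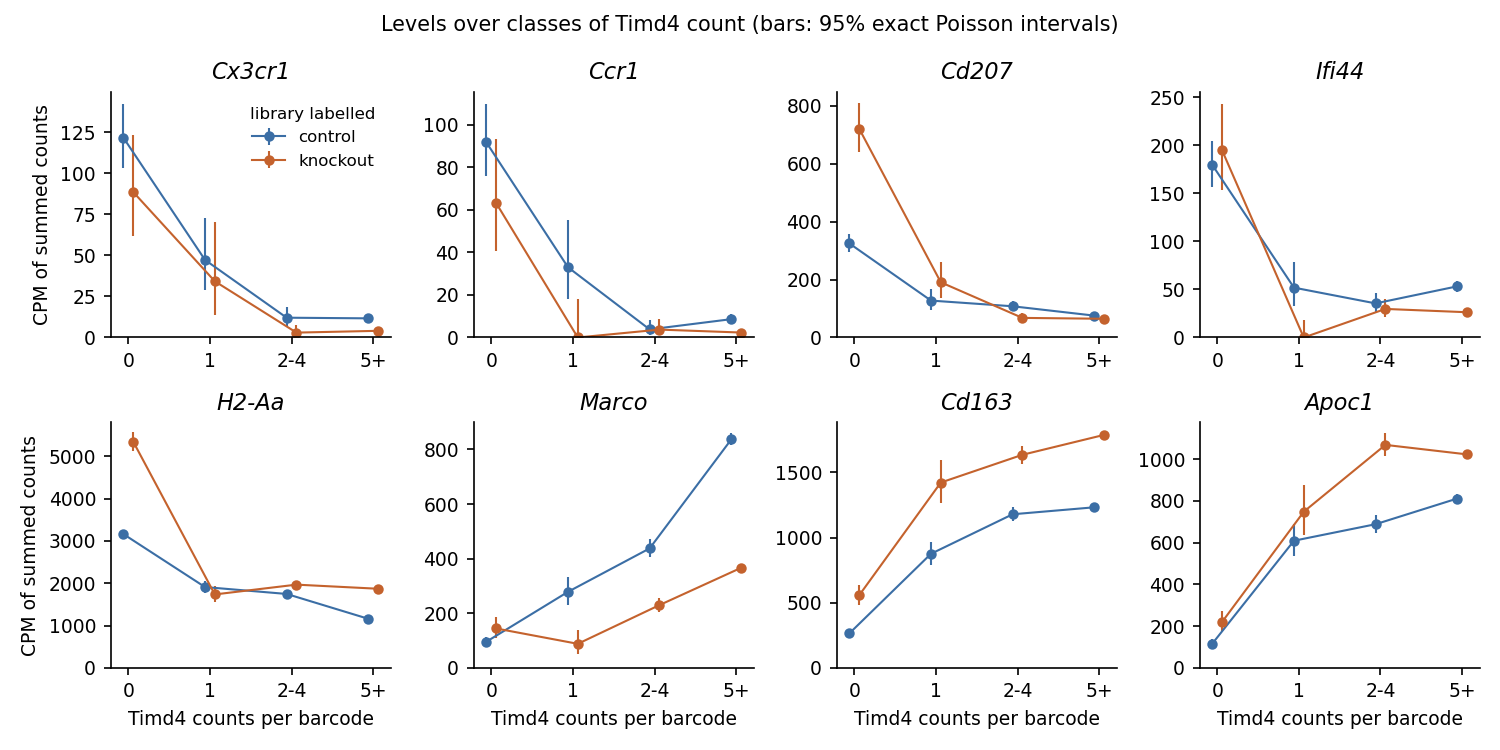
Each panel gives the CPM of a gene in barcodes with 0, 1, 2 to 4, and 5 or more Timd4 counts in the libraries labelled control (blue) and knockout (orange), with exact 95% Poisson intervals. Cx3cr1, Ccr1, Cd207, Ifi44 and H2-Aa are highest at 0 counts in both libraries, and Cd163 and Apoc1 are lowest there.

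The Timd4-negative barcodes were not uniform. Sorted by their Kupffer sum (30 to 50, 50 to 100, 100 or more), Ccr2 was 168, 46.9 and 24.7 CPM in the control library and 390, 165 and 32.6 CPM in the knockout library. Fn1 was 588, 11.3 and 0 CPM, and 1814, 25.4 and 0 CPM. Cd163 went the other way in the knockout library, at 47.9, 464 and 1522 CPM, while the control values were 217, 212 and 734 CPM. Marco was at 54.8 and 31.9 CPM in the lower 2 control groups and at 585 CPM in the top one.

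Ifi44 and Cd207 showed no common order over the Kupffer sum. Ifi44 was 137, 227 and 190 CPM in the control library and 164, 191 and 250 CPM in the knockout library. Cd207 was 261, 396 and 338 CPM in the control library, and in the knockout library it was lower in each further class, at 951, 712 and 370 CPM. These values can be set beside Timd4-positive barcodes with a Kupffer sum below 100 (102 control, 86 knockout), which held 53.6 and 33.0 CPM of Ifi44, 104 and 54.3 CPM of Cd207 and 1779 and 2732 CPM of H2-Aa. Timd4-negative barcodes at 50 to 100 held 3360 and 5689 CPM of H2-Aa and 128 and 121 CPM of Cx3cr1, against 29.2 and 18.9 CPM of Cx3cr1 in those Timd4-positive barcodes. For Ccr2 the low-sum Timd4-positive barcodes were not low, at 141 and 185 CPM.

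The 128 control barcodes that failed only the scar-macrophage limit shared part of this profile. They held 101 CPM of Cx3cr1, 279 CPM of Cd207, 127 CPM of Ifi44, 4098 CPM of H2-Aa, 78.4 CPM of Cd163 and 214 CPM of Mmp13. Barcodes gated as monocytes held 145 CPM of Cx3cr1 in the control library but 6.96 CPM of Cd207 and 11.7 CPM of Ifi44. Ifi44 was not particular to macrophages: endothelial-gated barcodes held 221 CPM of it in the control and 134 CPM in the knockout library. Those barcodes held 16.4 and 5.14 CPM of Cd207.

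**Figure D5:**
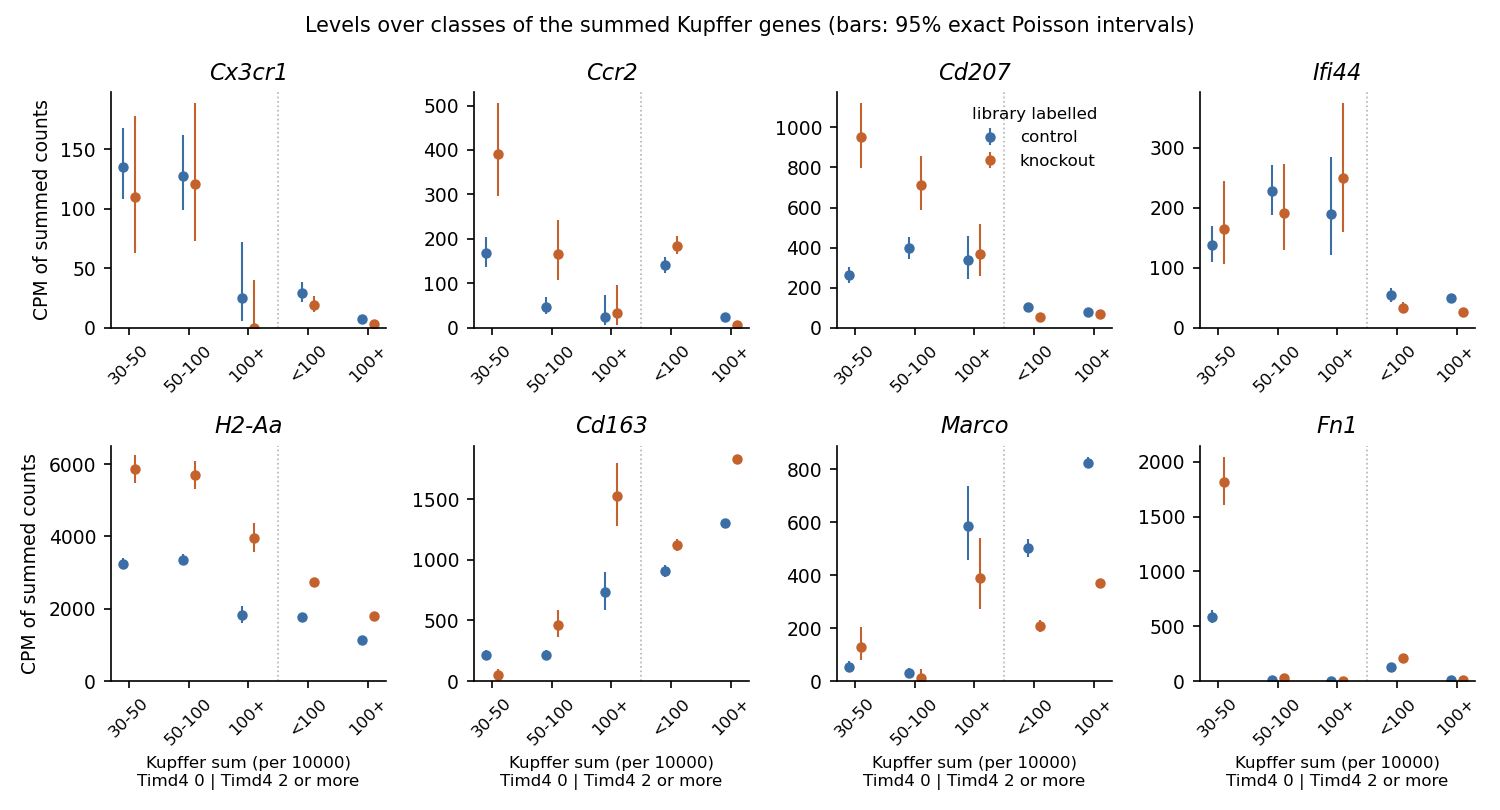
Each panel gives the CPM of a gene in Timd4-negative barcodes with a Kupffer sum of 30 to 50, 50 to 100 and 100 or more, and right of the dotted line in Timd4-positive barcodes with a sum below 100 and of 100 or more, with exact 95% Poisson intervals. Ifi44 and Cd207 stand above both Timd4-positive groups in all 3 Timd4-negative groups of each library, while Fn1 is high at 30 to 50 alone.

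Between the libraries, Timd4-negative barcodes were compared by size, with no test. A gene was counted when its CPM differed at least 1.5-fold, among 8115 genes at 10 CPM or more in 1 library. In the knockout library 1071 genes (13.2%) were higher and 1609 (19.8%) lower. For 564 (6.95%) and 659 (8.12%) the counting interval of the ratio also left out 0. Timd4-positive barcodes, measured alike, are given beside each result. For that class the totals among the same genes were 233 up and 465 down in the knockout library. Genes of the 8115 that missed the filter on counts and CPM in Timd4-positive barcodes could not be counted there. The Timd4-positive sums also held more counts, 8185715 and 22756998 against 1275003 and 395403, so counting error was smaller. The totals of the 2 classes are therefore not compared. List counts of Timd4-positive barcodes are to be read against these totals.

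MHC class II genes were higher in the knockout library: 5 of 7 by at least 1.5-fold and none lower, with a median log2 ratio of 0.84, against -0.06 over all genes measured. The median in Timd4-positive barcodes was 0.57, with 3 of 7 higher. Cd74 was 3045 CPM (2950 to 3143) in the control and 5463 CPM (5235 to 5698) in the knockout library, a log2 ratio of 0.84, and 0.79 in Timd4-positive barcodes. Ciita was 58.8 and 162 CPM, a log2 ratio of 1.46 (0.96 to 1.96), against 0.57 in Timd4-positive barcodes. With barcodes thinned to 5000 counts before Timd4 was read, the list's median was 0.23.

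Cell cycle genes were lower in the knockout library in 12 of 12 cases, with a median log2 ratio of -2.81. In Timd4-positive barcodes 11 of 12 were lower, with a median of -1.88. Mki67, the proliferation antigen Ki-67, was 181 CPM (159 to 206) in the control and 22.8 CPM (10.4 to 43.2) in the knockout library, a log2 ratio of -2.99. It was counted in 36 of 117 and 5 of 33 barcodes. With the Kupffer gate at 50 the Mki67 ratio was -1.14. Top2a, a topoisomerase of dividing cells, was 202 and 17.7 CPM, and Stmn1, a tubulin-binding protein, 184 and 20.2 CPM. Pclaf, Smc2, Slfn9, Apex1, Mcm3, Gpx3 and Tk1 were also among the lowest, with log2 ratios from -5.25 (Pclaf, 1 count in the knockout library, interval -10.6 to -2.75) to -2.0 (Tk1).

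Immediate early genes, which cells switch on within minutes of a stimulus or of handling, were higher in the knockout library. Of 13, 8 were at least 1.5-fold higher and none lower, with a median log2 ratio of 0.63. In Timd4-positive barcodes 12 were higher, with a median of 1.01. Fosb was 185 and 541 CPM, a log2 ratio of 1.55, and 1.57 in Timd4-positive barcodes. Klf4 (2.17), Klf10 (1.66), Tnfaip3 (1.61), Ms4a7 (1.40) and the cytokine gene Il1b (1.40) were among the 10 highest. Il1b turned to -0.12 with the Kupffer gate at 50.

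Of 9 measured resident macrophage genes, 2 were 1.5-fold higher (Folr2 and Cd163) and 2 lower (Lyve1 and Cbr2) in the Timd4-negative barcodes of the knockout library, beside 13.2% and 19.8% of all genes. Lyve1, a hyaluronan receptor, was 195 CPM in the control library, where 1 barcode held 50.0% of its counts, and 10.1 CPM (4 counts) in the knockout library, a log2 ratio of -4.27. Cbr2, a carbonyl reductase, was 40.0 CPM, with 82.4% of counts in 1 barcode, and 7.59 CPM (3 counts), a log2 ratio of -2.40 (-4.72 to -0.77). Endothelial-gated barcodes held 3930 CPM of Lyve1 in the control and 1324 CPM in the knockout library. The part of endothelial transcripts in the Lyve1 ratio was not tested. Folr2 was 235 CPM (209 to 263) in the control and 665 CPM (587 to 751) in the knockout library, a log2 ratio of 1.5, against 0.77 in Timd4-positive barcodes. Kcna2 was 48.6 and 159 CPM, a log2 ratio of 1.71, against 0.32. Ptprm, a receptor phosphatase, had 1.58 against 0.25, and Cd163 had 1.07 against 0.54. The Timd4-negative barcodes of the knockout library also had the higher Kupffer sum, and its part in these ratios was not tested. Ccr2 differed in direction between the classes, at 104 and 217 CPM in Timd4-negative and 46.9 and 19.0 CPM in Timd4-positive barcodes; in thinned barcodes its Timd4-negative log2 ratio turned from 1.07 to -0.38. Cx3cr1 was 122 and 88.5 CPM, and the interval of its log2 ratio (-1.03 to 0.08) included 0.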

How the data were processed

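The authors deposited 1 matrix of whole-number counts per library, per the file headers, with 10000 barcodes in each. Per the submitters' processing notes, the build is GRCm39. Which aligner was used, how cells were called and whether molecular identifiers were collapsed is not given in the sources used here, and the text therefore speaks of counts. The libraries held 106208933 and 129802501 counts, and 2 barcode numbers occur in both. The members and the gene lists were chosen with earlier results of these data known, so no list counts as independent support.

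Barcodes were gated as described in the report, counts were summed per class and library, and no doublet caller was run; an alternative kept only barcodes under 30000 counts. Genes with at least 20 counts over the sums and 10 CPM in 1 sum were tested with edgeR 4.0.16 in R 4.3.3 (TMM scaling, glmQLFit and glmQLFTest, design of class plus library, Benjamini-Hochberg adjustment). Gate genes and mitochondrial genes were left out of the counts of calls. The library block sets each Timd4-negative sum against the Timd4-positive sum of the same mouse. DESeq2 1.42.0 was an alternative. The fit was tested on simulated data: with 9625 genes, 49 of 50 genes raised 2-fold, 44 of 50 lowered to 0.5-fold and 12 of 9425 unchanged genes were called. That simulation drew the libraries' spread from the model and cannot show how mice vary.

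CPM are computed from the counts, with exact Poisson intervals; ratios have exact conditional intervals, all at 95%. Python 3.11.15 was used. Named genes were the markers, up to 4 per list with the largest ratio among called genes, and the 10 highest and 10 lowest called genes of at least 50 CPM with the same direction in both libraries. Genes of other cells' marker lists, or at higher CPM outside the gate, were left out of those 10; between libraries the rule was alike, by size. Genes named outside it, such as Csf1r, Ccl3, Pf4 and those in the sums over Kupffer-sum classes, were chosen after their values were seen. Coordinates are not printed, since the genome at hand is of another build.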

Additional observations from a re-analysis of the deposited data

Results flagged for a closer look

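Among the genes of the lists and the named genes, 4 had Timd4 log2 ratios of opposite sign in the 2 libraries, each with a counting interval that left out 0. Cd36, a fatty acid and lipoprotein receptor, was lower in Timd4-negative barcodes of the control library (-0.80, 427 against 745 CPM) and higher in those of the knockout library (0.79, 172 against 99.6 CPM). Clec4n, the lectin dectin-2, was -0.71 in the control and 0.61 in the knockout library. Smc2, a condensin subunit, was 0.78 and -1.15, the second from 7 counts in the Timd4-negative sum. Hspb1, a small heat shock protein, was -2.99 and 2.03, from 2 and 10 counts, and 1 barcode held 90.0% of the latter. The difference between the libraries was not tested for any of the 4, since each library is 1 mouse.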

How the results depend on the processing

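Shares, list medians and counts that moved are given below with the alternative that moved them; unless a value shows it, the cause was not tested. The 5 list medians between Timd4 classes moved by less than their spread under DESeq2 and without the library block. Gates of 100, the scar-macrophage sum below 2, counts thinned after Timd4 was read at full depth, and sums without each gene's top barcode were chosen after seeing the data.

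Genes called higher and lower (167 and 301) numbered 44 and 125 with the gate at 50, 5 and 10 at 100, 86 and 193 within 10000 to 20000 counts, 57 and 86 thinned to 5000 counts, 61 and 137 thinned after Timd4 was read, and 68 and 78 by DESeq2. With no filter 111 were called higher. Without the library block, which pairs the 2 classes of a mouse, edgeR called 0 and 0, with 579 genes at an unadjusted p below 0.05, and all 468 genes kept their direction. Of the 468 called genes, 157 were called again at a gate of 50, with 454 of 465 in the same direction, and 15 at 100, with 362 of 453. DESeq2 called 140 of them again. Without each gene's top barcode 357 were called again.

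Genes 1.5-fold higher in both libraries (415) numbered 1879 at a gate of 100, where sums are small, 215 without the top barcodes and 652 thinned after Timd4 was read; those lower (327) numbered 155 when thinned. Between the libraries, the 1071 higher and 1609 lower genes became 407 and 408 at a gate of 100, and 533 and 486 with only genes at 50 CPM or more. The Timd4-negative share of the control library was 13.3% with a minimum of 8000 counts, 9.62% and 2.61% at gates of 50 and 100, 13.3% within 10000 to 20000 counts and 23.6% thinned. In the knockout library it was 1.68% with a minimum of 8000, 0.682% at a gate of 100 and 6.67% thinned.

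The Kupffer identity median (-0.88) was -0.53 and -0.40 at gates of 50 and 100, -0.93 under 30000 counts, -0.66 within 10000 to 20000, -0.85 with the scar sum below 2, -0.71 thinned, -0.81 without top barcodes, -1.05 thinned after Timd4 was read and -0.97 with no filter. The control library alone gave -0.83 and the knockout library alone -0.87. The monocyte median (0.99) was 1.29 with a minimum of 8000, 0.040 and -0.28 at gates of 50 and 100, 1.37 with mitochondrial counts at most 10%, -0.16 with endothelial and mesenchymal limits of 5 and 3, 0.033 within 10000 to 20000, 0.69 with the scar sum below 2, 0.25 without top barcodes and 0.25 thinned after Timd4 was read; the libraries alone gave 0.41 and 0.72. The complement median (-0.46) was -0.42 with a minimum of 8000, -0.32 and -0.21 at gates of 50 and 100, -0.50 under 30000 counts, -0.31 thinned, -0.35 without top barcodes, -0.51 thinned after Timd4 was read, -0.56 with no filter and -0.36 at 50 CPM or more. The control library alone gave -0.35 and the knockout library alone -0.40. The haem and iron median (-0.29) was -0.43 at a gate of 100 and -0.17 thinned. The class II median (1.38) was 0.73 at a gate of 100, 1.56 with mitochondrial counts at most 10%, 1.62 within 10000 to 20000 and 0.87 thinned. Between the libraries the class II median (0.84) was 1.02 with a minimum of 8000, 1.02 at a gate of 100, 1.0 with mitochondrial counts at most 10%, 1.07 with endothelial and mesenchymal limits of 5 and 3, 0.23 thinned and 0.67 from means over barcodes. The immediate early median (0.63) was 1.02 at a gate of 100 and 0.99 thinned.

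Of single genes, Arg1 turned to -0.39 and -0.59 at gates of 50 and 100, -0.78 with limits of 5 and 3 and -2.08 within 10000 to 20000, and Fn1 to -0.014 at 50, -1.14 with limits of 5 and 3 and -2.34 within 10000 to 20000. At a gate of 100, Ccl9 turned to -0.47, Cxcl2 to -0.79 and H2-DMa to -0.14. Thinned, Ly6c2 turned to 0.49 and, between the libraries, Ccr2 to -0.38; Il1b turned to -0.12 at a gate of 50. Depth limits the knockout values, since 33 barcodes hold 395403 counts.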

Other observations

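The gene lists not described above are given here by their calls between Timd4-negative and Timd4-positive barcodes, beside 1.74% of all 9597 genes called higher and 3.14% called lower. In the dead-cell uptake list, 1 of 12 measured genes was called higher, the scavenger receptor Stab1, and none lower, although Timd4 itself belongs to that function. The resident macrophage list went both ways, with 2 of 9 measured genes called higher and 4 lower. Cd163, Folr2 and Fcna were among those called lower, and Cbr2 was among those called higher. With the top barcode of each sum removed, Cbr2 was 7.06 against 1.47 CPM in the control library. It was 2.53 against 1.49 CPM in the knockout library, so few counts stand behind it. None of the 7 heat shock genes and none of the 12 genes of hypoxia and glycolysis was called. Of 12 cell cycle genes 1 was called higher, Mcm5, and of 13 immediate early genes 1 was called lower, Klf2. Of 12 Toll-like receptor genes and Cd14, Tlr1 alone was called, higher. Of 13 genes of lipid handling, 5 were called lower and none higher. Of 12 scar- and lipid-associated macrophage genes outside the gate, 2 were called higher (Cd63 and Capg) and 3 lower (Ctsd, Ctsb and Lpl). Of 13 scavenger and lectin receptors, 2 were called higher and 4 lower, and of 13 profibrotic products, Fn1 and Mmp13 were called higher.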
